A study of Mus musculus with 6 samples.

Results

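Tumor macrophages and monocytes were the myeloid cells that remained among the CD8+ tumor infiltrating lymphocytes (TILs) of 2 single-cell libraries from B16-OVA melanoma. They were chosen by measured counts. A barcode was a member when it had at least 500 genes, at least 1000 UMIs (unique molecular identifiers, 1 per captured RNA molecule) and at most 20% mitochondrial UMIs, at least 10 UMIs of Lyz2, C1qa, C1qb and Csf1r together, and fewer than 50 UMIs of the melanoma genes Pmel, Mlana, Tyrp1 and Dct together. This gave 50 members of 1017 filtered TIL barcodes, and of 11125 filtered cells in the 6 libraries of thymus, spleen and tumor. The levels of the 4 myeloid genes are therefore a description and not a finding.

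The study deleted Pdcd1, the gene of the inhibitory receptor PD-1, in CD8 T cells. The control mice were Pdcd1fl/fl without Cre, and the Pdcd1 cKO mice were Pdcd1fl/fl with E8I CD8-Cre, all adult and on a C57BL/6 background. Male and female mice were used across the study, and the sample records do not give the sex of the pooled mice. B16-OVA cells, a mouse melanoma line that expresses ovalbumin, were injected under the skin, no drug was given, and tumors were taken on day 12. Dissociated tumors went through dead cell removal and CD8 (TIL) microbeads, and the cells of 3 mice per genotype were pooled into 1 PIPseq library. The floxed alleles are shared by both groups, the Cre is driven in CD8 T cells and not in macrophages, and the pooled mice cannot be told apart. With 1 library per genotype no test was possible. Each difference below is one between libraries, and the intervals, all at 95%, hold counting error only. Where values come in pairs, the library labelled Pdcd1fl/fl is given first and the library labelled Pdcd1 cKO second.

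Monocytes leave the blood for a growing tumor and mature there into macrophages, losing Ly6C and Ccr2 and gaining complement, scavenger receptor and lysosomal genes. Tumor macrophages clear dying cells, present antigen, secrete chemokines and can restrain T cells through ligands such as PD-L1. Interferon from T cells is a well known stimulus for PD-L1, antigen presentation and nitric oxide synthase in these cells.

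Pdcd1 itself, the deleted gene, had 2 and 3 UMIs in members. In the T cell group (filtered cells that were neither members nor melanoma cells, with at least 3 UMIs of Cd3d, Cd3e, Cd3g, Cd8a and Cd8b1) it stood at 182 CPM (UMIs of a gene per 1000000 UMIs of the group; 169 to 196) and 152 CPM (141 to 163). Over all filtered cells it was 76.4 and 102 CPM. The RNA was thus present in the T cells of both libraries, and counts per gene do not show whether exons were deleted, so both libraries are named by their labels throughout.

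The 2 tumor libraries held 457 and 561 barcodes with 9401747 and 7924590 UMIs and a median of 13837 and 9510 UMIs per barcode. They shared 0 barcodes. Members had a median of 8831 UMIs (6523 to 16653) and 2483 genes in the library labelled Pdcd1fl/fl, and of 6812 UMIs (5876 to 74582) and 2125 genes in the library labelled Pdcd1 cKO. Their median mitochondrial shares were 1.70% and 1.23%.

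Features of single cells and of a whole library stood apart before any comparison was made. The deepest member of the library labelled Pdcd1 cKO, with 74582 UMIs, carried 23.0% of all 324065 member UMIs of that library, whereas the 21 members of the other library had 201022 UMIs together and the deepest held 8.28%. Values without this cell are given where it moved a result. T cell RNA differed too. At least 3 UMIs of the 5 T cell genes were found in 5 and 15 members, with a maximum of 8 and 55 UMIs. The unnamed transcript Gm47854 was at 0 in all 456 filtered cells of the library labelled Pdcd1fl/fl, and had UMIs in 28 of 29 members and 489 of 532 other cells of the library labelled Pdcd1 cKO, so its absence belonged to the whole library and not to the macrophages.

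Members made up 21 of 456 filtered cells (4.61%, exact binomial interval 2.87 to 6.95) and 29 of 561 (5.17%, 3.49 to 7.34). The shares did not differ beyond counting error, and they describe libraries after CD8 bead isolation, not tumors. The other filtered cells comprised 290 and 470 cells of the T cell group, 139 and 58 melanoma cells, and 6 and 4 cells that fell in no group. In the thymus 0 of 1067 and 0 of 2635 cells passed the same rule, where 3 cells would have been 0.281% and 0.114%, and in the spleen 0 of 1478 and 1 of 4928 did.

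The gap around the rule was wide in 1 library and narrow in the other. In the library labelled Pdcd1fl/fl the members nearest the limit had 25, 33 and 42 UMIs of the 4 genes, and the nearest cells outside had 7, 4 and 4. In the library labelled Pdcd1 cKO the corresponding values were 10, 14 and 21 inside and 9, 7 and 7 outside. Medians over members were 99 and 72 UMIs. Of the other cells, 72.9% and 62.0% had 0 UMIs of these genes. A single barcode of the library labelled Pdcd1 cKO passed both limits, with 224 UMIs of the 4 genes and 836 of the melanoma genes among 57555 UMIs, and it was counted with the melanoma cells.

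The label was checked against marker genes that the rule had not used. Aif1, an actin-binding protein of macrophages, was at 895 and 959.7 CPM in members against 1.74 and 7.76 CPM in the other filtered cells. Cd68, a lysosomal glycoprotein of phagocytes, was at 856 and 1058 CPM against 6.65 and 12.0 CPM. Tyrobp, an adaptor of myeloid receptors, was at 1666 and 1978 CPM against 17.3 and 33.4 CPM. All 14 genes of the macrophage list were detected, and Adgre1, which encodes F4/80, had 40 and 25 UMIs. Of the 12 monocyte genes, 11 were detected, with Ace of patrolling monocytes at 0.

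Genes of other lineages were checked in the same way. Of 9 neutrophil genes, 6 were at 0 in members, S100a9, Cxcr2 and Ly6g among them, and the list summed to 44.8 and 52.5 CPM, most of it Csf3r. Of the dendritic cell genes, Flt3, Fscn1 and Snx22 were at 0 and the list summed to 308 and 127 CPM against 190.3 and 68.4 CPM in the other cells, with Clec10a, a lectin that macrophages also express, as the most abundant. The B cell genes Cd79a, Ms4a1 and Jchain and the fibroblast genes Col1a1, Col1a2 and Col3a1 were at 0 in members, while 4 of 8 genes of the B cell list (12 and 25 UMIs, most of them Ighm) and 5 of 8 of the fibroblast and endothelium list (20 and 35 UMIs, with Cdh5 the most abundant) were detected. All 10 melanoma genes were detected and summed to 463 and 373 CPM, against 9853 and 5528 CPM in the other cells.

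T cell RNA was present in members as well. All 12 genes of the T cell list were detected in members. They summed to 274 and 1052 CPM, against 5897 and 7454 CPM in the T cell group. The most abundant were Cd3d (15 and 72 UMIs) and Trbc2 (7 and 87 UMIs). Cd8a had 0 UMIs in the members of the library labelled Pdcd1fl/fl and 15 in those of the library labelled Pdcd1 cKO, at least 3.10-fold higher when a floor of 3 counts stands for the 0. The summed list was higher in the library labelled Pdcd1 cKO by 1.93 on the log2 scale (1.53 to 2.38). The doublet caller marked 1 of 456 and 3 of 561 filtered cells and none of the members, and the part that T cell RNA plays in the differences between libraries was not tested.

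Members were compared gene by gene with the other filtered cells. Of 9035 genes tested (at least 100 UMIs over all filtered TIL cells), 457 (5.06%) were at least 4-fold higher in members in both libraries and 317 (3.51%) at least 4-fold lower. Because the members were chosen on myeloid genes, these counts are read only as a description. The highest smaller ratio of the 2 libraries belonged to C3ar1, the receptor for the complement fragment C3a, with log2 ratios of 10.64 and 8.61. Next came Clec4n (Dectin-2, a receptor for fungal mannans; 8.25 and 8.28), Ms4a7 (8.11 and 8.22), the monocyte-attracting chemokine Ccl2 (8.66 and 8.05) and C5ar1, the receptor for C5a (9.04 and 7.97). The 20 leading genes also held the chemokines Ccl8, Ccl7 and Ccl6, the interleukin-1 receptor antagonist Il1rn, the scavenger receptor Msr1, properdin (Cfp), the elastase Mmp12 and lipoprotein lipase (Lpl).

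By role, 7 of 9 complement genes tested were at least 4-fold higher in members in both libraries, 2 of them (C1qa and C1qb) because the rule used them, and C2 was lower. All 5 Fc receptor genes were higher, with medians of 7.57 and 6.68 on the log2 scale where the medians over all genes were 0.07 and 0.06. Among the 20 lysosomal genes 15 were higher, with Ctsb, a cysteine protease, at 4696 and 6073 CPM. All 6 MHC class II genes tested were higher, and Cd74, the invariant chain, stood at 11014 and 14121 CPM in members against 174 and 218 CPM in the T cell group. Of 12 genes of the chemokine list, 11 were higher and Cxcl10 was lower, its level in the other cells being 463 and 238 CPM. The chemokine Ccl5, counted in the cytotoxic list, was not higher in members (log2 ratios of -1.06 and -0.42). Of 10 MHC class I genes 0 passed the 4-fold limit in either direction. The dissociation and stress list, a sign of handling, had 7 of 14 genes higher and 0 lower (medians 2.00 and 1.97), and its part in the contrast was not tested.

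Receptors and regulators followed, each count to be read beside the 5.06% of all genes that were higher. Among chemokine receptors 4 of 5 were higher in members in both libraries, and among scavenger and efferocytosis receptors 3 of 5 were. Of the growth factor receptors 2 of 3 were higher. Of 16 transcription factors 8 were higher and 0 lower. Spi1, which encodes the myeloid master regulator PU.1, had 194 and 191 CPM in members against 0.515 and 2.09 CPM in the T cell group. Of 11 ligands of T cell costimulation and inhibition, 6 were higher, led in abundance by the inhibitory receptor Lilrb4a at 448 and 759 CPM. Of 14 cell cycle genes 0 were higher and 2 lower, and Mki67, a marker of dividing cells, had 2 and 2 UMIs.

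PU.1 binds a purine-rich core, so the promoters of the 20 leading genes were searched for ACTTCCTC, this core read on the opposite strand, on both strands in RefSeq windows on GRCm38.p6. The rule genes Lyz2 and C1qa are among the 20. A promoter was found for 14, and 2 of these (14.3%) held the motif, against 997 of all 27025 promoters (3.69%). The shares were not tested, and a match is a description of letters and not of binding. The 2 stretches are shown because they stand beside a leading complement gene and a leading protease gene of the members, with the motif in capitals. The first lies in the window chr4:136892865-136893164 on the minus strand, the second in chr9:7344147-7344446 on the plus strand.
C1qc: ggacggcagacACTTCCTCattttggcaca
Mmp12: ccacttcacccACTTCCTCttccaagactc

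The members varied widely among themselves along an axis from monocyte to macrophage genes. Leiden clustering of the 50 members split them into 2 clusters of 25 cells, and each held cells of both libraries (10 and 15 cells in cluster 0, 11 and 14 in cluster 1). Cluster 0 was led by Ltb4r1, S100a4, Mgl2, Sirpb1c and Plac8, with Ly6c2 also among its 10 leading genes, and is called monocyte-like by Plac8, Ly6c2 and Ccr2 of the marker list. Ccr2, the receptor that brings monocytes out of the marrow, had 43 UMIs in cluster 0 and 1 in cluster 1. Cluster 1 was led by Gdf15, Fabp4, Dnmbp, Mmp12 and Atp6v0d2, none of them a marker, so it is called by its number. Dnmbp had UMIs in the library labelled Pdcd1 cKO only (0 and 67), and Mmp12 lay mostly in 1 cell of the other library, so these 2 do not describe the cluster in both libraries.

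Median depth was 6783 UMIs in cluster 0 and 8926 in cluster 1, which held the deepest member. The monocyte list summed to 5249.5 CPM in cluster 0 and 912 CPM in cluster 1, MHC class II to 36389 and 17054 CPM, lysosomal genes to 15779 and 40177 CPM, and complement to 4735 and 10909 CPM. C1qa was detected in all 25 cells of cluster 1 and in 15 of 25 in cluster 0. Since the clusters were formed on the variable genes of the same cells, these contrasts only say what the clusters are. At a coarser resolution all members formed 1 cluster.

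**Figure D1:**
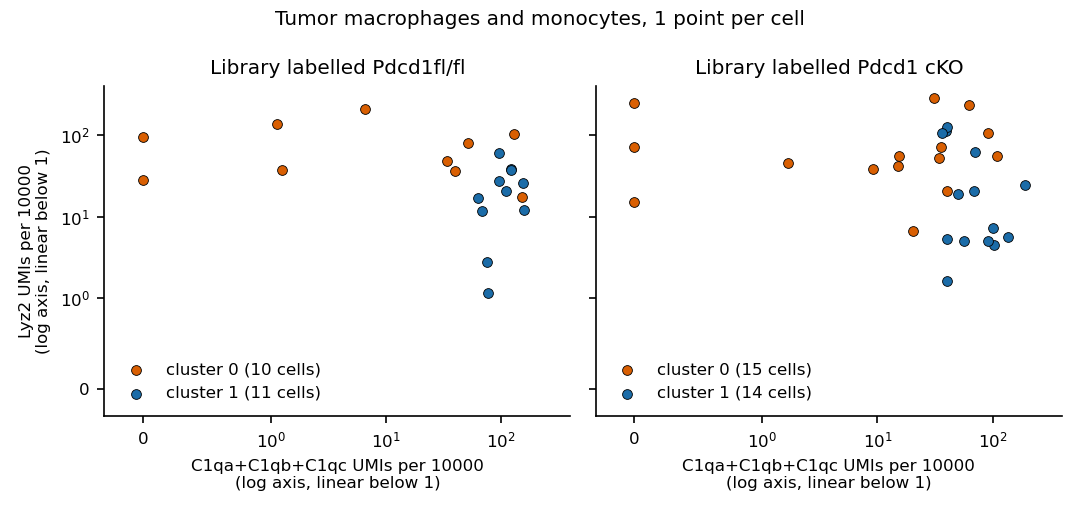
Lyz2 UMIs per 10000 (vertical) against the sum of C1qa, C1qb and C1qc UMIs per 10000 (horizontal), 1 point per member, for each of the 2 libraries, with log axes that are linear below 1 and colours for the 2 clusters. Cells without any C1q UMI are all in cluster 0, and both clusters occur in both libraries.

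Between the 2 libraries, 786 genes had at least 100 UMIs in members. Of these, 59 (7.51%) were at least 2-fold higher in the library labelled Pdcd1 cKO and 38 (4.83%) at least 2-fold lower. The intervals of all 97 excluded 0, but with at least 100 UMIs any 2-fold ratio has such an interval, so this adds no support. Each count over a list below is to be read beside these shares. The median log2 ratio of all genes tested was -0.06. Of the called genes 60.8% were higher, and when totals left out mitochondrial, ribosomal protein and Malat1 counts the split was 52 higher and 54 lower (49.1%). Without the deepest member 34 genes were higher and 27 lower, 28 and 24 of them shared with the full set. Without the members with at least 3 T cell UMIs 420 genes had enough UMIs, and 15 were higher and 20 lower (42.9% higher), 11 and 12 of them shared. Of the 97 called genes 51 had enough UMIs there and 23 of these were still at least 2-fold different, as were 29 of the 46 that had too few, and all 97 kept their sign. The deepest member has 14 T cell UMIs, so this setting leaves it out as well.

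The lowest ratio of the genes tested belonged to Mrc1, which encodes the mannose receptor CD206, an endocytic receptor of resident and alternatively activated macrophages. Members had 141 and 26 of its UMIs, or 701 and 80.2 CPM. The log2 ratio was -3.11 (-3.79 to -2.52), and it was -3.10 without the deepest member and -2.13 without the members with at least 3 T cell UMIs. The difference was spread over cells, since 18 of 21 members had an Mrc1 UMI in the first library and 6 of 29 in the second. With each member thinned to 1000 UMIs the shares were 57.1% (34.0 to 78.2) and 3.45% (0.0873 to 17.8), and in the T cell group they were 0.345% and 0%.

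Dab2, an adaptor for endocytosis that Mrc1-positive macrophages carry, had the same pattern, with 99 and 28 UMIs (492 and 86.4 CPM) in 18 and 6 members. Its log2 ratio was -2.49 (-3.17 to -1.89), and it was -3.30 without the deepest member. Gas6, the bridge between dying cells and the receptors Mertk and Axl, had 45 and 0 UMIs, the 45 in 6 members, at least 24.2-fold lower in the library labelled Pdcd1 cKO. Lyve1, a hyaluronan receptor of resident macrophages, had 9 and 0 UMIs, 88.9% of them in 1 cell, and Stab1, a clearance receptor, had 13 and 2. Folr2, the folate receptor of resident macrophages, had 24 and 10 UMIs.

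The 2 other scavenger receptors with at least 100 UMIs were not called. Msr1 stood at 428 and 389 CPM (log2 ratio -0.14, -0.54 to 0.27), and Cd36, which takes up oxidized lipoprotein, at 348 and 478 CPM (0.45, 0.04 to 0.89). The deepest member held 51.6% of the Cd36 UMIs of its library, and without it the ratio was -0.21. Of 3 scavenger and efferocytosis genes with enough UMIs, only Mrc1 was called lower, and their median was -0.14. With a minimum of 20 UMIs 3 of 6 were lower and 0 higher, where 377 of all 3216 genes were lower and 289 higher. The summed list stood at 2039.6 and 1052 CPM, with a log2 ratio of -0.95 (-1.17 to -0.74). Mrc1 alone held 141 of the 410 UMIs of this sum in the first library and 26 of the 341 in the second.

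Single genes of secreted factors and surface receptors were lower too, while the macrophage list as a whole summed to 11357 and 12991 CPM, with 3 of 12 genes called lower and 1 higher. The log2 ratio of that sum was 0.19, and it was 0.02 without the deepest member. Without the members with at least 3 T cell UMIs it was -0.05. Pf4, the chemokine CXCL4, had 316 and 117 UMIs (1572 and 361 CPM) in 13 and 13 members, with a log2 ratio of -2.12 (-2.44 to -1.81). Selenop, the selenium carrier protein, was at 1139 and 268 CPM (-2.08, -2.46 to -1.72). C5ar1 was at 428 and 114 CPM (-1.89, -2.50 to -1.33), and the endotoxin co-receptor Cd14 at 975.0 and 389 CPM (-1.32). Each of these 4 genes kept a negative ratio in every setting run, and the smallest difference among the settings was -0.81, for Cd14.

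Maf, a transcription factor of resident and anti-inflammatory macrophages, was at 488 and 160.5 CPM (log2 ratio -1.60, -2.12 to -1.10), and it was the only one of 7 transcription factors past the 2-fold limit. Spi1 had a ratio of -0.03. Fcgr2b, the inhibitory Fc receptor, was at 776 and 299 CPM (-1.37), but at -0.99 without the deepest member, -0.82 without the members with at least 3 T cell UMIs and -0.73 with cells weighted equally, while 0 of the other 4 Fc receptor genes were called. The adhesion receptor Cd44 was at 691 and 262 CPM (-1.40). Mmp12 was at 751 and 157 CPM, but 1 cell held 86.8% of its UMIs in the library labelled Pdcd1fl/fl. Odc1, the first enzyme of polyamine synthesis, was at 657 and 169.7 CPM, and it was lower in the T cell group as well, with 405 and 175 CPM.

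**Figure D2:**
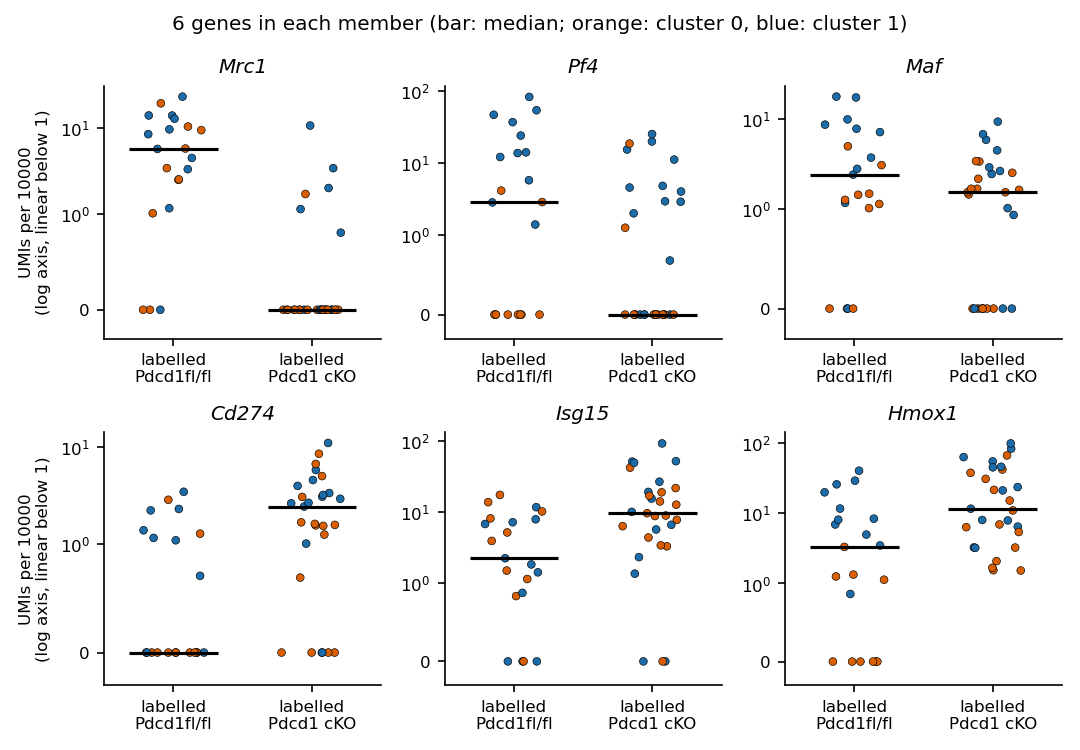
UMIs per 10000 of 6 genes (vertical, log axis that is linear below 1) in each member, by library (horizontal), with the median as a bar and colours for the 2 clusters. Most members of the library labelled Pdcd1fl/fl had Mrc1 and most of the library labelled Pdcd1 cKO had none, while Cd274, Isg15 and Hmox1 had higher medians in the library labelled Pdcd1 cKO.

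Of 9 genes of the chemokine list with enough UMIs, 0 were called higher and 2 lower, where 38 of all 786 genes were lower. The 2 were Pf4 and Ccl7, an attractant of monocytes (1015 and 417 CPM, -1.28, -1.61 to -0.96), and the median was -0.68. With a minimum of 20 UMIs 2 of 15 were higher and 3 lower, with a median of -0.01. Without the members with at least 3 T cell UMIs, Ccl7 was at -0.59. Ccl2 was at 1254 and 781 CPM (-0.68), and Ccl6 at 3781 and 2058 CPM (-0.88, and -1.41 without the deepest member). Ccl8 went the other way, with 2686 and 4675 CPM (0.80, and 1.17 without the deepest member), but 1 cell held 64.5% of its UMIs in the library labelled Pdcd1 cKO. Ccl5, a chemokine that is counted in the cytotoxic list and not in this one, was called higher, with 28 and 367 UMIs.

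Among interferon-induced genes, 2 of the list and Oasl1 were higher in members of the library labelled Pdcd1 cKO. Isg15, a ubiquitin-like protein induced by interferon, had 94 and 565 UMIs (468 and 1743 CPM), with a log2 ratio of 1.89 (1.58 to 2.23). It was 2.07 without the deepest member and 2.25 without the members with at least 3 T cell UMIs, and its level in the T cell group was 44.6 and 74.3 CPM. The medians per 10000 UMIs were 2.20 and 9.50, and the ranges overlapped, 0 to 17.2 and 0 to 91.6. Irf7, a factor that amplifies the interferon response, was at 174 and 509 CPM (1.53, 1.01 to 2.12). Oasl1, an interferon-induced regulator of Irf7 translation, was at 54.7 and 284 CPM (2.32, 1.47 to 3.43).

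Over the interferon list, 2 of 8 genes were called higher and 0 lower, where 59 of all 786 genes (7.51%) were higher. The median of the list was 0.77. The list summed to 2607 and 5206 CPM (log2 ratio 1.00, 0.86 to 1.14), and to 1.14 on the log2 scale without the deepest member. Other cells of the library labelled Pdcd1 cKO also had more of it, with levels of 1248 and 2418 CPM in the melanoma cells and of 262 and 422 CPM in the T cell group. The list was not uniform. Gbp2, a guanylate-binding protein induced by interferon gamma, was at 333 and 339 CPM, with 64.2% of its UMIs in 1 cell of the library labelled Pdcd1fl/fl and a ratio of 2.01 without the members with at least 3 T cell UMIs.

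Cd274, which encodes PD-L1, the ligand of PD-1, was higher in the same library. It had 16 UMIs in 9 of 21 members and 88 UMIs in 23 of 29 members (79.6 and 272 CPM). The log2 ratio was 1.73 (0.99 to 2.64), and it lay between 1.65 and 1.83 in all settings run. In the T cell group Cd274 was at 3.87 and 6.83 CPM. Thinned to 1000 UMIs, 4.76% (0.120 to 23.8) and 24.1% (10.3 to 43.5) of members had a Cd274 UMI, against 0.345% and 0.851% of the T cell group, and these 2 member intervals overlapped. Pdcd1lg2, the other ligand (PD-L2), had 3 and 6 UMIs. Of 6 costimulatory and inhibitory ligands with enough UMIs, Cd274 was the only one called. Cd86, which costimulates T cells, had too few UMIs, 27 and 34.

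MHC class II genes differed less than 2-fold over all members. All 6 MHC class II genes with enough UMIs stayed under the 2-fold limit, with a median of 0.13, and the list summed to 21212 and 26307 CPM. Of 7 MHC class I genes, 2 were called higher, H2-D1 and the immunoproteasome subunit Psmb9, where 59 of all 786 genes (7.51%) were higher. The median was 0.45, with the summed list at 0.73 and at 0.50 without the deepest member. In the melanoma cells that list was at 10669 and 18300.5 CPM. H2-D1 was at 2249 and 4959 CPM (1.14), but 0.43 without the deepest member. Psmb9 was at 224 and 459.8 CPM (1.03, 0.55 to 1.55), and 1.19 without that cell.

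Some genes of heme breakdown were higher there as well. Hmox1, heme oxygenase 1, had 191 and 1156 UMIs (950.1 and 3567 CPM) in 15 of 21 and 29 of 29 members, with a log2 ratio of 1.91 (1.69 to 2.14). The deepest member held 53.4% of these UMIs in its library, and without it the ratio was 1.18. Blvrb, biliverdin reductase B, was at 279 and 660.4 CPM (1.24, and 1.17 without that cell). Its ratio was 0.96 without the members with at least 3 T cell UMIs. Slc48a1, which moves heme out of the lysosome, was at 104 and 302 CPM (1.51), but 0.64 without the deepest member. Of 6 iron and heme genes 3 were called higher and 0 lower, where 59 of all 786 genes (7.51%) were higher. The median of the list was 1.12, and ferritin heavy chain (Fth1) stood at 9536 and 16361 CPM (0.78). Without the members with at least 3 T cell UMIs the ratio of Fth1 was 0.23 (0.11 to 0.34).

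Some glycolytic enzymes were higher too. Gapdh was at 333 and 1086 CPM (log2 ratio 1.70, 1.32 to 2.10, and 1.31 without the deepest member), and Aldoa at 602 and 1635 CPM (1.44, 1.04 without it, and 0.81 without the members with at least 3 T cell UMIs). Pgk1 and Eno1 had ratios of 1.21 and 1.01, but 0.84 and 0.77 without that cell. In all, 4 of 9 genes of the list were called higher and 0 lower, where 59 of all 786 genes (7.51%) were higher. The median of the list was 0.88, while Ero1a, a hypoxia-induced oxidase, was at 234 and 231 CPM. The summed list was at 0.89, at 0.62 without the deepest member and at 0.53 without the members with at least 3 T cell UMIs, that cell among them. For the iron and heme list these values were 0.94, 0.68 and 0.46.

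Of 18 lysosomal genes 3 were called higher and 0 lower, where 59 of all 786 genes (7.51%) were higher. The median of the list was -0.07. Ctsd, an aspartic protease, was at 2860.4 and 2324 CPM (-0.30), but at -1.30 without the deepest member, which held 61.6% of its UMIs in that library. Ctss, the protease that trims the invariant chain, was at 2035 and 5487 CPM (1.43, and 0.84 without the deepest member, which held 48.7% of its UMIs there). Npc2, a cholesterol carrier, was at 945 and 2049 CPM (1.11, and 0.87 without it). The summed list was higher by 0.24 with this cell and at -0.12 without it, so the list had no direction of its own. Lgals3, galectin-3, was at 4333 and 9125 CPM (1.07, 0.96 to 1.19), but at 0.98 without the deepest member and 0.76 without the members with at least 3 T cell UMIs, and it was higher in the T cell group too, with 112 and 359 CPM. Pla2g7, a secreted phospholipase that inactivates platelet-activating factor, was at 134 and 762 CPM (2.48, and 1.67 without the deepest member).

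The highest ratios of named genes were in part those of single cells. Eif4g3, a translation initiation factor, had 7 and 322 UMIs. Its ratio of 4.74 was the highest of the genes tested that were detected in both libraries. However, the deepest member held 96.3% of its UMIs in the library labelled Pdcd1 cKO, and without this cell the ratio was 0.43. Selenom, a selenoprotein of the endoplasmic reticulum, had 12 and 145 UMIs in 6 and 21 members (2.85, 2.06 to 3.89), and 2.59 without that cell. Sod2, the mitochondrial superoxide dismutase, had 19 and 135 UMIs (2.11), and 0.67 without the members with at least 3 T cell UMIs.

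Genes of cytotoxic lymphocytes were also among the highest. Ccl5, a chemokine of effector T cells that macrophages can also make, had 28 UMIs in 9 of 21 members and 367 UMIs in 29 of 29 (139 and 1132 CPM), with an interval of the log2 ratio from 2.47 to 3.63. In the T cell group it was at 576 and 2059 CPM. The granule protein gene Nkg7 was at 49.7 and 358 CPM in members (2.78) and at 1546 and 2626 CPM in the T cell group, and without the members with at least 3 T cell UMIs its ratio was 1.14. AW112010 was at 249 and 1867 CPM in members (2.89) and at 991 and 1639.8 CPM in the T cell group. The cytotoxic list, 8 of 9 genes detected with Ncr1 at 0 and Ccl5 as the most abundant, summed to 269 and 1722 CPM in members and to 3343 and 6861 CPM in the T cell group. Without the members with at least 3 T cell UMIs the ratio of Ccl5 was 3.61 and that of AW112010 was 1.97. T cell RNA moved with these genes, and its part in them was not tested.

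**Figure D3:**
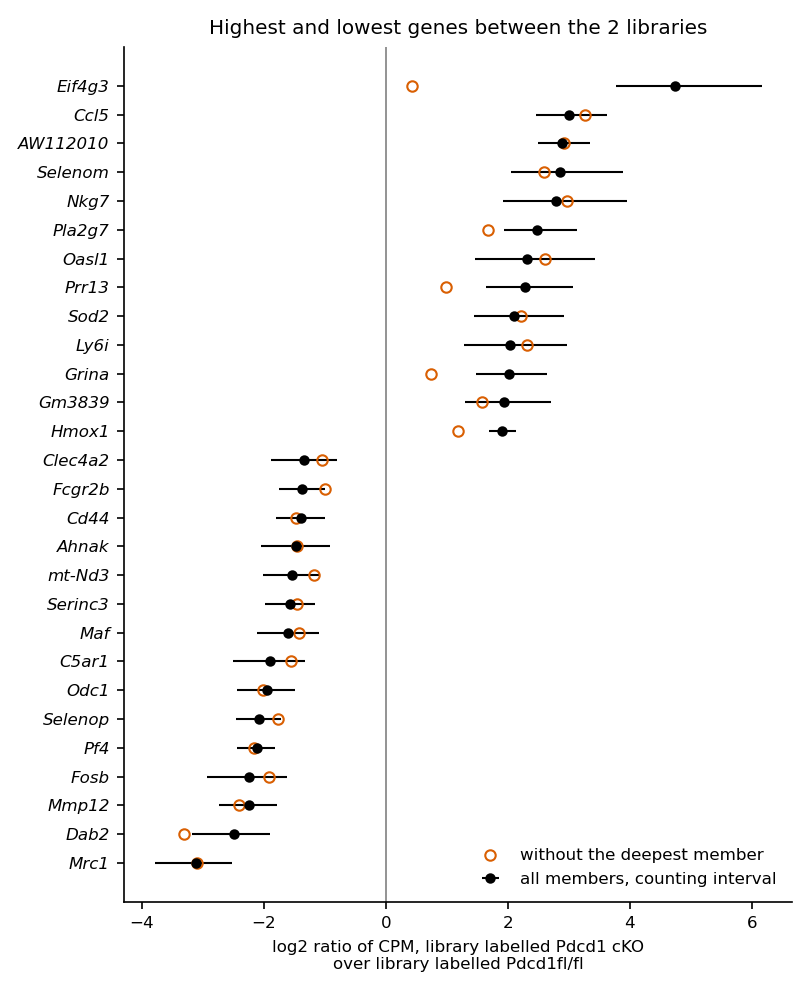
Log2 ratios of CPM in members between the 2 libraries (positive where the one labelled Pdcd1 cKO is higher), for the highest and lowest genes with UMIs in both libraries. Filled points with bars are all members with 95% counting intervals and open points leave out the deepest member, which moves Eif4g3 from 4.74 to 0.43 and leaves Mrc1 at -3.10.

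Among genes of the T cell group with at least 100 UMIs there, 75 were called in members. Of these, 6 were at least 2-fold different in the same direction in the T cell group (Ccl5, Gm47854, Hmox1, Irf7, Lgals3 and Odc1), and 0 in the opposite direction. Hmox1 and Irf7 were low there, at 9.79 and 21.2 CPM and at 13.9 and 33.9 CPM. Of all 696 genes tested in members that had as many UMIs in the T cell group, 21 (3.02%) were at least 2-fold different there.

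The same genes were followed within each cluster, which holds cells of both libraries. Mrc1 had 41 and 1 UMIs in cluster 0 (493 and 8.68 CPM; log2 ratio -5.26, -11.17 to -3.27) and 100 and 25 UMIs in cluster 1 (848 and 119.7 CPM; -2.80, -3.52 to -2.18). Cd274 was at 36.1 and 191 CPM in cluster 0 and at 110.3 and 316 CPM in cluster 1. Both differences therefore had the same direction on the monocyte-like side and in cluster 1. Pf4 was at 84.2 and 113 CPM in cluster 0 (7 and 13 UMIs) and at 2621 and 498 CPM in cluster 1. Selenop was at 373 and 339 CPM in cluster 0 and at 1679.5 and 229.8 CPM in cluster 1. Whether the clusters differ in this was not tested.

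Isg15 was at 589 and 1103 CPM in cluster 0 and at 382 and 2097 CPM in cluster 1. Hmox1 was at 84.2 and 1459 CPM in cluster 0, which does not hold the deepest member, and at 1561 and 4729.7 CPM in cluster 1, where it was 2762 CPM without that cell. Ly6c2, a surface protein of classical monocytes, was at 674 and 1459 CPM in cluster 0. Over all members it was at 318 and 697 CPM (log2 ratio 1.12, 0.72 to 1.56), or 2.93 (2.29 to 3.70) without the members with at least 3 T cell UMIs, and 1 cell held 60.9% of its UMIs in the library labelled Pdcd1fl/fl. T cells carry Ly6c2 too, at 420.0 and 550.2 CPM in the T cell group.

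MHC class II levels were also followed within the clusters. Cd74 was at 20714 and 16697 CPM in cluster 0 (log2 ratio -0.31, -0.41 to -0.22) and at 4173 and 12700.3 CPM in cluster 1 (1.60, 1.47 to 1.75), where it was 12739 CPM without the deepest member. H2-Aa, the class II alpha chain, was at 687 and 3394 CPM in cluster 1, and at 2762 CPM in the library labelled Pdcd1 cKO without that cell. Per 10000 UMIs the 11 cells of cluster 1 in the library labelled Pdcd1fl/fl had a median of 22.5 Cd74 UMIs (0.869 to 134), and the 14 cells of the other library one of 129 (30.7 to 232). The ranges overlapped, and since the clusters were formed on the same cells the contrast is a description.

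Other lists had few calls or calls in both directions. The 4 rule genes summed to 10651 and 10294 CPM, with Lyz2 (lysozyme) at 4880.1 and 4663 CPM and C1qb at 2801 and 3144 CPM. The log2 ratio was -0.05 for the sum and -0.07 for Lyz2. Without the members with at least 3 T cell UMIs these ratios were 0.33 and 0.81. Lipid handling genes were called 1 higher (Lgals3) and 1 lower (Apoe) of 7, with a median of -0.01. The list summed to 11073 and 15731 CPM (log2 ratio 0.51, 0.43 to 0.58). That ratio was 0.43 without the deepest member and 0.25 (0.14 to 0.35) without the members with at least 3 T cell UMIs. Apoe, the lipid carrier, was at 930.2 and 451 CPM (-1.04), but at -0.68 without the deepest member and -0.69 without the members with at least 3 T cell UMIs. Complement genes were called 1 higher, Cfb (99.5 and 259 CPM), and 1 lower, C5ar1, of 7. Cell cycle genes were called 0 of 3.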

How the data were processed

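The authors aligned the reads of the PIPseq v3 libraries to GRCm39 and deposited raw UMI counts per gene and barcode (32227 genes), without normalization. Their processing notes name Seurat 4.3.0. The members and the gene lists were chosen with earlier results of these data known. Counts were summed over the cells of a group within a library and scaled to CPM. Log2 ratios added 0.5 counts to each side and had exact conditional binomial intervals, CPM had exact Poisson intervals and shares had Clopper-Pearson intervals, all at 95%. Genes needed 100 UMIs. A call meant a ratio of at least 2 between libraries, or of at least 4 over the other cells in both libraries. Named genes were Pdcd1, the rule genes, list members, the 20 leading genes, the 15 highest and 15 lowest ratios and 5 leading genes per cluster. Genes under 100 UMIs were named from the lists as values. Members were clustered with scanpy 1.11.5 and leidenalg 0.10.2 (2000 variable genes, 15 principal components, 15 neighbours, resolution 0.5). Doublets were called with scrublet in each library and no cell was removed. Python 3.11.15, numpy 2.4.6, scipy 1.17.1, pandas 2.3.3 and matplotlib 3.10.9 were used, and the ratio and interval steps were tested on simulated data.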

Additional observations from a re-analysis of the deposited data

How the results depend on the processing

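Member shares stayed within their intervals under every rule minimum, melanoma limit and cell filter tried. No called gene that is named changed its sign, though genes under the 2-fold limit did. Among list sums, those of lysosomal, macrophage, transcription factor, cell cycle, rule and growth factor receptor genes turned without the members with T cell UMIs. Leaving out members with at least 3 T cell UMIs left 16 and 14 members and 420 genes, of which 15 were higher and 20 lower (11 and 12 shared with the full set); with fewer cells, fewer genes reached 100 UMIs. A gene minimum of 20 UMIs gave 851 genes at least 4-fold higher over other cells and 289 higher and 377 lower between libraries, and a minimum of 300 UMIs gave 188, 25 and 11, by testing more or fewer genes. Without the deepest member, an alternative chosen after seeing the data, 34 genes were higher. The share of members with a Ly6c2 UMI in the library labelled Pdcd1 cKO was 72.4% with cells thinned to 2000 UMIs, which keeps more molecules, against 41.4% at 1000. Clusters numbered 1 at a resolution of 0.3. Of 149 named genes, 85 moved beyond their intervals without the members with T cell UMIs, 47 without the deepest member and 42 with cells weighted equally; the cause was not tested. Leaving out the 2 members with the most T cell UMIs, also chosen after seeing the data, moved 1. No paired analysis was possible because each genotype had 1 library. Pooled mice, CD8 bead isolation and 50 cells limit every comparison here.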

Other observations

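Genes of inflammatory macrophages with fewer than 100 UMIs were mostly in the library labelled Pdcd1 cKO. Nos2, inducible nitric oxide synthase, had 5 UMIs in 3 members of the library labelled Pdcd1fl/fl and 63 UMIs in 12 members of the other (log2 ratio 2.84, 1.67 to 4.64), of which 61 lay in cluster 1. Acod1, which makes itaconate, had 9 and 87 UMIs in 3 and 14 members (2.51, 1.59 to 3.76), and Ptgs2, cyclooxygenase 2, had 9 and 47 (1.63, 0.65 to 2.91). The cytokine genes Tnf and Il1b did not share this, at 16 and 20 UMIs and at 18 and 13. Il1a had 2 and 23 UMIs, and of 47 Cxcl1 UMIs in the library labelled Pdcd1 cKO 1 cell held 97.9%. The monocyte list summed to 2278 and 2719 CPM (log2 ratio 0.25, and 1.21 without the members with at least 3 T cell UMIs), while at a minimum of 20 UMIs 5 of 9 of its genes were lower in the library labelled Pdcd1 cKO and 1 higher, with a median of -1.36. Among the lower were Chil3 at 24 and 6 UMIs, with 66.7% of the 24 in 1 cell, Vcan at 18 and 4 and F13a1 at 56 and 31. Of the chemokine receptors Ccr1 had 51 and 27, Cx3cr1 40 and 31 and Ccr2 14 and 30. Of 3216 genes with at least 20 UMIs, 377 were at least 2-fold lower and 289 higher.

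At a finer resolution 3 cells of the library labelled Pdcd1 cKO formed a cluster of their own, led by Rsad2, Ms4a4c and Isg15, in which the interferon list summed to 16562 CPM. The 1 spleen barcode that passed the rule had 22078 UMIs, 5 of Lyz2 and 6 of Csf1r, with C1qa, C1qb and Cd74 at 0 and 191 UMIs of Mpo, a myeloid progenitor gene. The Y-linked gene Ddx3y had 59 and 92 UMIs in members and Xist, which female cells express, 0 and 1. Genes of the dissociation and stress list were called 0 higher and 1 lower (Fosb, 413 and 86.4 CPM) of 9, with a median of -0.24. Of 77 Hspa1a UMIs in the library labelled Pdcd1 cKO, 1 cell held 75.3%.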
